A study of Mus musculus with 27 samples.

Results

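The genes followed here encode the proteins that neutrophils pack into their granules or release with them: Camp, Ltf, Lcn2, Pglyrp1, Slpi, Mpo, Elane, Prtn3 and Ctsg. They were taken by symbol from a list, and 9 of the 9 listed genes were found among the 16024 gene rows of the expression table. The table gives FPKM, a fragment level scaled to transcript length and library size, for 27 RNA-seq libraries of perfused, dissociated lung from C57BL/6 mice. The series compared stromal and epithelial cells of lungs bearing tumours with the same cells of tumour-free lungs.

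Tumour lungs came from mice given HKP1 cells, a lung cancer cell line grown in culture, through the tail vein, and were taken at day 20 to 25 of tumour growth. Wild-type (WT) lungs carried no tumour, and no other allele, transgene or agent is given for either arm. Neutrophils were sorted as CD11b+Ly6G+ cells (3 tumour and 3 WT libraries) and monocytes as CD11b+Ly6C+ cells (2 and 2). Epithelial cells were sorted as Epcam+CD11b-CD11c- (3 and 3), so that the tumour-lung gate can hold injected tumour cells as well as the host's epithelium. Macrophages were CD11c+CD11b+ in tumour lung (3 libraries) and CD11c+CD11b- in WT lung (2 libraries), so that gate and tumour cannot be told apart there. Total lung cells were not sorted (3 and 3). Neither pooling of mice nor separate mice per library is given in the sources used here, so each test measures only the spread between libraries, which may be technical. Replicate numbers below are those of the library titles.

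As background, a neutrophil builds its granules in sequence while it matures in the bone marrow. Azurophil granules come first and hold myeloperoxidase (Mpo) and the serine proteases neutrophil elastase (Elane), proteinase 3 (Prtn3) and cathepsin G (Ctsg). Specific granules follow, with the cathelicidin precursor (Camp), lactoferrin (Ltf), lipocalin 2 (Lcn2) and the peptidoglycan-binding protein Pglyrp1. Slpi encodes secretory leukocyte protease inhibitor, which blocks elastase and cathepsin G, and both Slpi and Lcn2 are also made by airway and alveolar epithelium. Transcripts of azurophil proteins are largely gone by the time a neutrophil leaves the marrow.

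The neutrophil libraries carried neutrophil transcripts at high levels: the FPKM summed over 12 neutrophil markers ran from 34766 to 37862 in WT and from 34955 to 40878 in tumour libraries. S100a9, Il1r2 and Hdc among those markers were listed at 0 in all 3 WT neutrophil libraries. Sftpc was listed at 0 in all 6 epithelial and all 3 WT total lung libraries. A 0 of this kind can be a failed estimate, since S100a9 stood at 13139 to 17220 FPKM in tumour neutrophils, and no direction is given for these genes there. The WT marker sum thus lacks S100a9, Il1r2 and Hdc, which averaged 15799, 4347 and 1732 FPKM in tumour neutrophils. The WT and tumour ranges of that sum therefore cannot be compared. Other cell types' markers were also present in WT neutrophil libraries. Sftpc of alveolar type II cells stood at 699, 441 and 1764 FPKM in WT and at 36.5, 9.63 and 14.7 in tumour neutrophils, and Scgb1a1 of club cells at 1012, 179 and 1142 against 17.0, 5.44 and 14.8. A further 3 libraries stood apart for the members: WT monocyte replicate 4, WT total lung replicate 12 and WT epithelial replicate 9. Their values are given wherever a result rests on them.

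Each tumour comparison was a limma fit on log2(FPKM + 1) over every gene that reached 1 FPKM in 2 or more of its libraries, with p-values adjusted over all those genes (Benjamini and Hochberg) and 0.05 as the threshold. A difference on this scale, called a log2 change below, understates the fold of genes near or under 1 FPKM. The 6 members Camp, Ltf, Lcn2, Pglyrp1, Slpi and Prtn3 passed the filter in neutrophils. Mpo, Elane and Ctsg passed it in no comparison, so for them levels alone are given.

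In neutrophils, the transcripts of specific granule proteins and of Slpi were lower in tumour lung, while Prtn3 was higher. Of the 6 members tested, 6 passed the threshold, 5 lower and 1 higher, where 59.1% of all 9349 genes tested passed it in either direction (25.8% lower and 33.3% higher). Prtn3 reached the filter only through its 3 tumour libraries, so its place in this count was set by the group where it is high. The FPKM of all 9 members added up to between 3378 and 4233 in WT neutrophils and to between 1065 and 1269 in tumour neutrophils, which is 0.778% to 1.02% and 0.284% to 0.366% of all FPKM in those libraries.

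Camp, whose product is cut to the antimicrobial peptide CRAMP, stood at 93.8, 266 and 229.9 FPKM in WT neutrophils (replicates 5, 6 and 7) and at 8.16, 3.84 and 3.57 in tumour neutrophils (replicates 6, 7 and 8). All 3 WT libraries lay above all 3 tumour libraries. The mean fell from 197 ± 90.8 to 5.19 ± 2.57 FPKM (SD, n = 3 each), a level 37.9-fold lower. On the log2 scale Camp fell by 4.94 (SE 0.39, limma adjusted p = 3.03e-05), and only 5 of the 9349 genes tested had a lower value.

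Slpi had the highest mean level of the members in both groups of neutrophils. It stood at 2041, 2517 and 2371 FPKM in WT and at 705, 431 and 623 in tumour neutrophils. The groups did not overlap, and the mean level was 3.94-fold lower in tumour neutrophils (log2 change -2.0, SE 0.19, limma adjusted p = 7.75e-05).

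Pglyrp1, which binds bacterial peptidoglycan, stood at 533, 641 and 662 FPKM in WT and at 229.8, 122 and 197 in tumour neutrophils. Again the lowest WT library lay above the highest tumour library (log2 change -1.78, SE 0.22, limma adjusted p = 0.000241).

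Ltf, the iron-binding protein of specific granules, stood at 70.0, 163 and 119 FPKM in WT and at 62.0, 42.3 and 60.9 in tumour neutrophils. The groups did not overlap, but WT replicate 5 lay close to tumour replicates 6 and 8. Its log2 change was -1.02 (SE 0.28, limma adjusted p = 0.0128), and the call was lost when all 10 groups shared 1 estimate of the spread (adjusted p = 0.428).

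Lcn2, which captures bacterial siderophores, stood at 639.5, 645 and 779 FPKM in WT and at 203, 667 and 179 in tumour neutrophils. Here the groups overlapped, since tumour replicate 7 lay within the WT range. The log2 change was -1.24 (SE 0.42, limma adjusted p = 0.0318). The call was lost in 10 of 16 alternative settings, among them the fit without tumour replicate 8 (adjusted p = 0.110) and that without WT replicate 7 (adjusted p = 0.0826). Without tumour replicate 7, whose Lcn2 resembled WT, the log2 change was -1.84 (adjusted p = 6.35e-05).

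**Figure D1:**
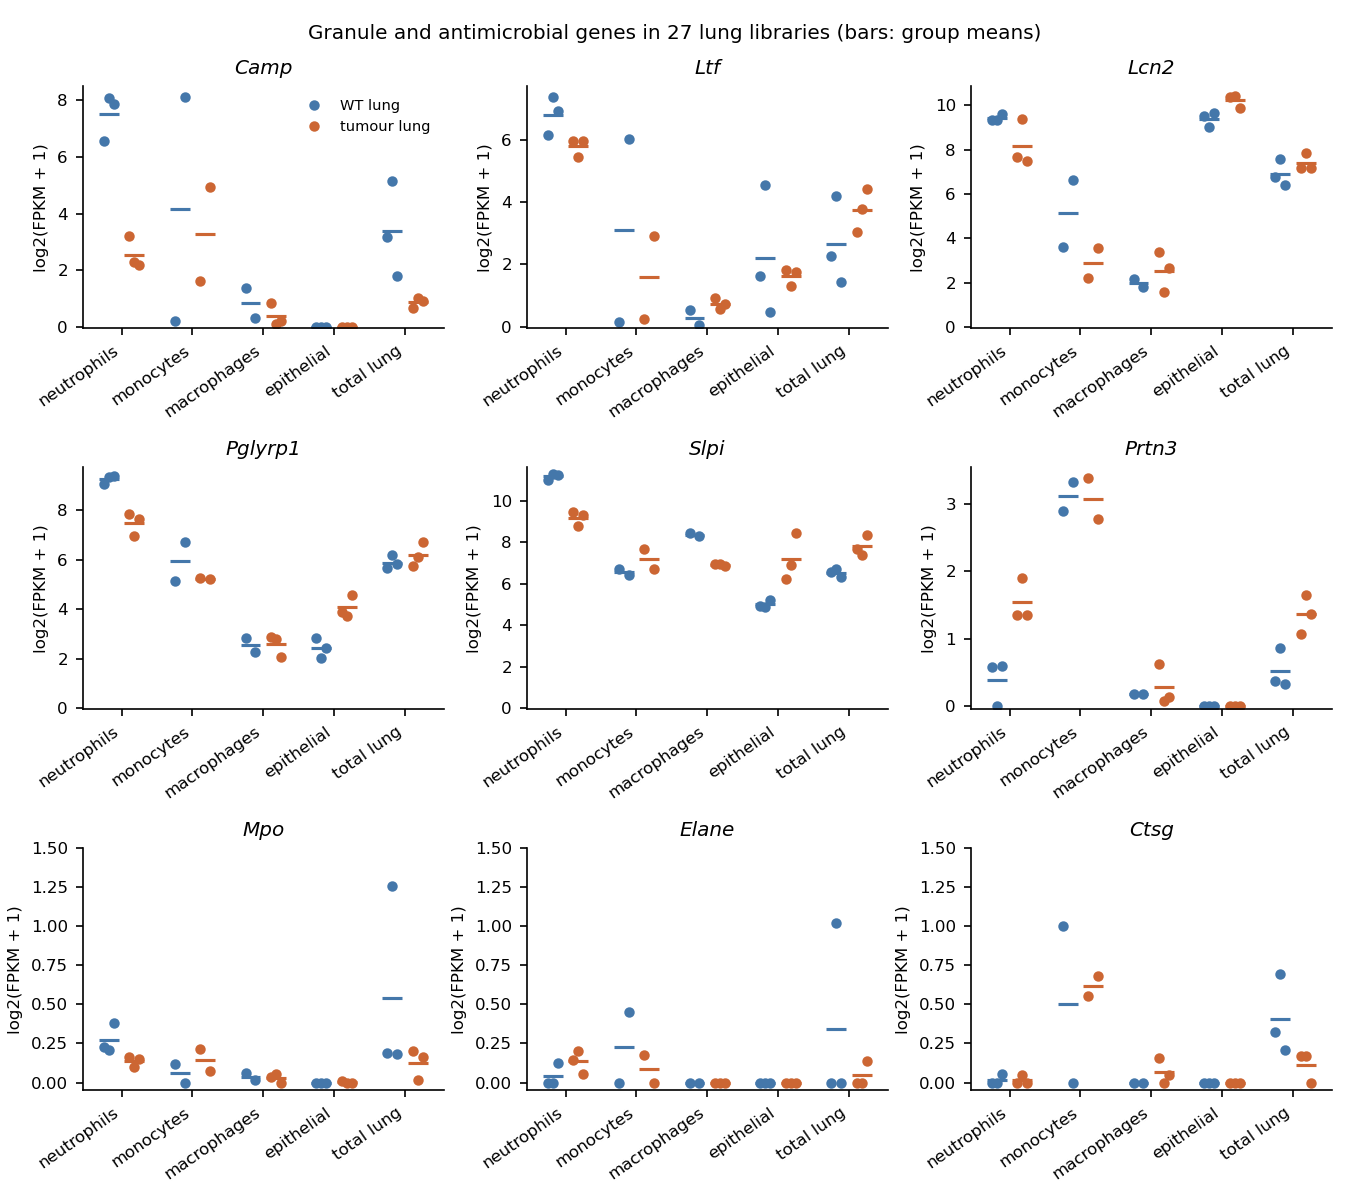
Level of each of the 9 members, as log2(FPKM + 1), in the 27 libraries by preparation, with 1 point per library coloured by WT or tumour lung and a bar at each group mean; the vertical range differs between panels. In neutrophils, Camp, Ltf, Pglyrp1 and Slpi lie higher in all 3 WT libraries than in the tumour libraries, and Prtn3 lies higher in all 3 tumour libraries.

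The azurophil members were close to 0 in neutrophils of both lungs. Mpo stood at 0.170, 0.155 and 0.303 FPKM in WT and at 0.119, 0.0693 and 0.108 in tumour neutrophils. Elane was listed at 0, 0 and 0.0923 FPKM in WT and at 0.107, 0.152 and 0.0394 in tumour neutrophils. Ctsg was listed at 0 in 2 of 3 libraries of each group, and no neutrophil library exceeded 0.0405 FPKM. None of these 3 genes reached the filter of 1 FPKM in any neutrophil library, and no direction is given for them.

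Prtn3 moved against the specific granule members. It stood at 0.498, 0 and 0.504 FPKM in WT and at 1.54, 2.74 and 1.56 in tumour neutrophils. No WT library reached 1 FPKM, so Prtn3 was tested only because it was higher in tumour, and its test is a description. Every tumour library lay above every WT library (log2 change 1.14, SE 0.22, limma adjusted p = 0.00208), at a mean of 1.95 FPKM in tumour, 0.163% of the summed FPKM of the 9 members on average. Libraries were made with a kit that does not mark strand, and in the GENCODE annotation Prtn3 overlaps Plppr3 on the other strand. Fragments from a stretch shared by both genes therefore cannot be assigned by strand. How much of their transcripts they share was not examined. Cycling-cell genes, which mark dividing precursors, were also higher in tumour neutrophils for 7 of 11 tested, with summed levels of 125 to 138 FPKM against 92.6 to 113 in WT. Pcna made up most of that sum, at 102 against 81.1 FPKM on average, and its groups overlapped. Prtn3 was highest in monocytes, at means of 7.73 FPKM in WT and 7.58 in tumour. Of 4 monocyte genes tested in neutrophils, Nr4a1 (1702 against 920 FPKM) and Csf1r (80.2 against 61.0) were higher in tumour and Treml4 (32.2 against 63.0) was lower. Whether precursors or monocytes contribute to Prtn3 in neutrophil libraries was not tested.

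Other genes of the same granules were counted from lists of textbook members. The shares to set beside each count are those over all 9349 genes tested in neutrophils, 33.3% higher and 25.8% lower. Of the specific granule list, 11 genes were tested in neutrophils: 8 were lower and 1 was higher in tumour, with a median log2 change of -1.22, where the median over all genes tested was 0.11. Among its 7 genes other than the members above, 4 were lower and 1 higher, with a median of -0.72. Mmp8, neutrophil collagenase, went from 150 ± 5.70 to 57.9 ± 45.4 FPKM (log2 change -1.62, limma adjusted p = 0.00856). Olfm4, which marks a subset of mouse neutrophils, went from 44.3 ± 12.1 to 15.5 ± 3.998 FPKM (log2 change -1.45, limma adjusted p = 0.000763). Cd177, a surface protein held in the same granules, rose from 31.0 ± 5.56 to 84.5 ± 14.5 FPKM (log2 change 1.42, limma adjusted p = 0.000186). Cybb, the heavy chain of the flavocytochrome that sits in specific granule membranes, stood at 17.3 FPKM in WT and 18.6 in tumour neutrophils and did not pass the test (adjusted p = 0.502).

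The azurophil list gave 3 higher and 2 lower genes among 7 tested, with a median log2 change of -0.13. One of the higher genes is Prtn3, which was tested only through its tumour libraries. Among the 6 genes other than the members, 2 were higher and 2 lower, with a median of -0.37. Gusb, a lysosomal beta-glucuronidase, rose from 10.0 ± 0.923 to 27.7 ± 0.462 FPKM (log2 change 1.38), and Cd63, a granule membrane tetraspanin, rose from 192 ± 41.6 to 358 ± 16.4 (log2 change 0.92). Srgn, the proteoglycan core that retains proteases in granules, fell from 11833 ± 1455 to 6470 ± 669 FPKM (log2 change -0.87). For gelatinase and secretory granules, 5 of 12 genes were lower and 1 was higher, with a median of -0.34. Adam8, a surface metalloprotease stored in granules, fell from 1269 ± 194 to 282 ± 31.1 FPKM (log2 change -2.16), and Slc11a1, a metal transporter, fell from 629 ± 74.1 to 197 ± 38.5 (log2 change -1.68). Among 7 genes for granule protease inhibitors, 2 were lower, Slpi and Serpinb1a (log2 change -1.16), and 2 were higher, Cst3 among them (0.64).

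Regulators and partners of these proteins moved in both directions, as did genes at large. Over all 9349 genes tested in neutrophils, 59.1% passed the threshold, 33.3% higher and 25.8% lower. Counts near those shares are not read as particular to a list. Of 14 transcription factor genes of granulocyte development, 9 were lower and 3 higher in tumour neutrophils (median -0.57). Irf8 went from 8.91 ± 3.19 to 2.60 ± 1.36 FPKM (log2 change -1.48), Ets1 from 23.8 ± 4.24 to 8.10 ± 0.865 (-1.43), and Egr1 rose from 293 ± 19.8 to 886 ± 92.4 (1.59). Of 10 tested receptors or partners of the member proteins, 4 were lower and 3 higher. Trem1, a receptor that binds Pglyrp1, fell from 1522 ± 45.3 to 655 ± 37.6 FPKM (-1.22), and Lrp1, a receptor for lactoferrin, rose from 8.09 ± 0.372 to 22.5 ± 1.68 (1.37). Of 12 tested genes for inducers of Lcn2 and Slpi and their signalling, 3 were higher and 4 lower, where 1 of the 4 is Il1b, listed at 0 in all 3 tumour libraries, for which no direction is given. Tnf went from 115 ± 11.1 to 2127 ± 427 FPKM (4.18) and Il1a from 107 ± 7.28 to 1887 ± 149 (4.13). Genes of extracellular traps, the webs of chromatin and granule protein that neutrophils release, were lower for 5 and higher for 2 of 10 tested. Padi4, the enzyme that citrullinates histones, fell from 113 ± 7.08 to 25.1 ± 12.4 FPKM (-2.28).

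**Figure D2:**
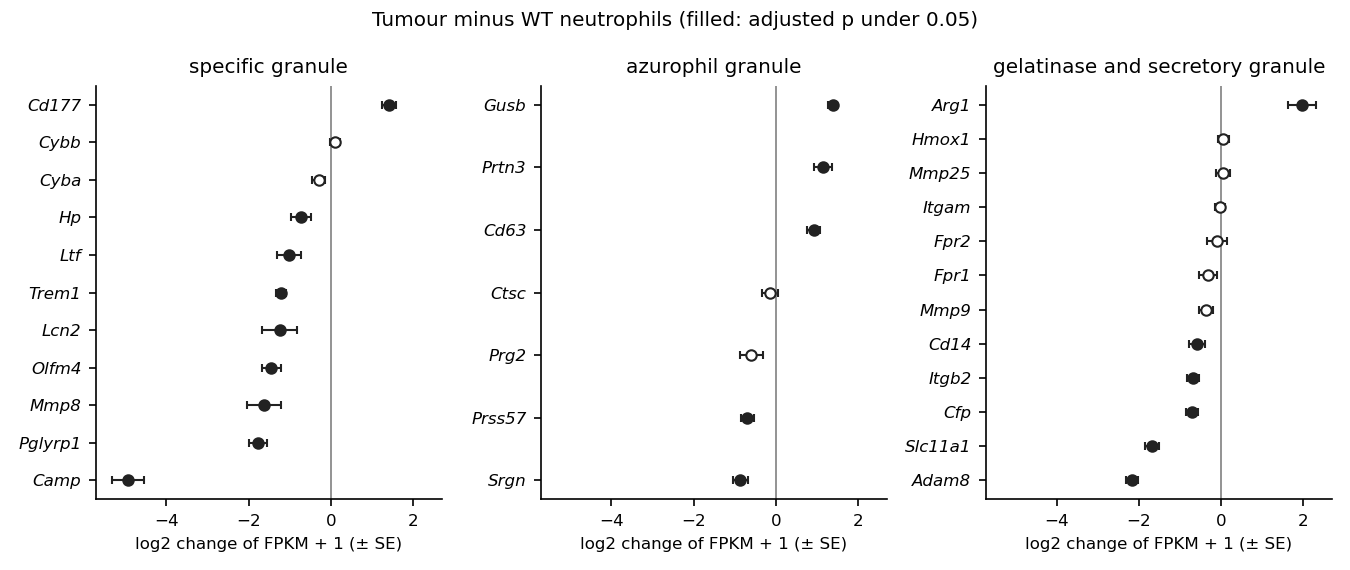
Log2 change on FPKM + 1, tumour minus WT neutrophils (n = 3 each), of each tested gene of 3 granule lists, with bars of 1 standard error and filled points where the limma adjusted p was under 0.05. In the specific granule list 8 of 11 genes are filled below 0, with Camp lowest at -4.94, and in the azurophil list 2 of 7.

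Markers of lung cells other than neutrophils fell with the specific granule members. In tumour neutrophil libraries, 5 of 5 tested club cell genes, 9 of 9 alveolar type II genes, 8 of 8 B cell genes and 11 of 12 endothelial genes were lower, and 5 of 9 macrophage genes were higher. Their summed levels were 185 to 1197 FPKM in WT and 8.02 to 18.4 in tumour libraries for club cells, 624 to 2260 and 59.0 to 90.3 for type II cells, and 199 to 283 and 9.56 to 67.2 for B cells. In sorted WT epithelium Slpi stood at 28.8 to 36.5 FPKM, Pglyrp1 at 3.11 to 6.11 and Lcn2 at 519.8 to 801, and Camp was listed at 0, as Sftpc was in the same libraries. The part of RNA from these other cells in the members' differences was not tested. Of 12 neutrophil markers tested, 6 were lower and 3 higher, against 25.8% and 33.3% of all genes. The 3 are S100a9, Il1r2 and Hdc, listed at 0 in WT, for which no direction is given. Cxcr2 (101 to 125 FPKM in WT and 90.3 to 115 in tumour) and Mmp9 (433 to 578 and 319 to 454) overlapped between the lungs. S100a8 and Retnlg, both abundant in mature neutrophils, fell. S100a8 lay between 21819 and 24368 FPKM in WT and between 9547 and 11008 in tumour neutrophils, and Retnlg between 3387 and 3788 and between 699 and 808.

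**Figure D3:**
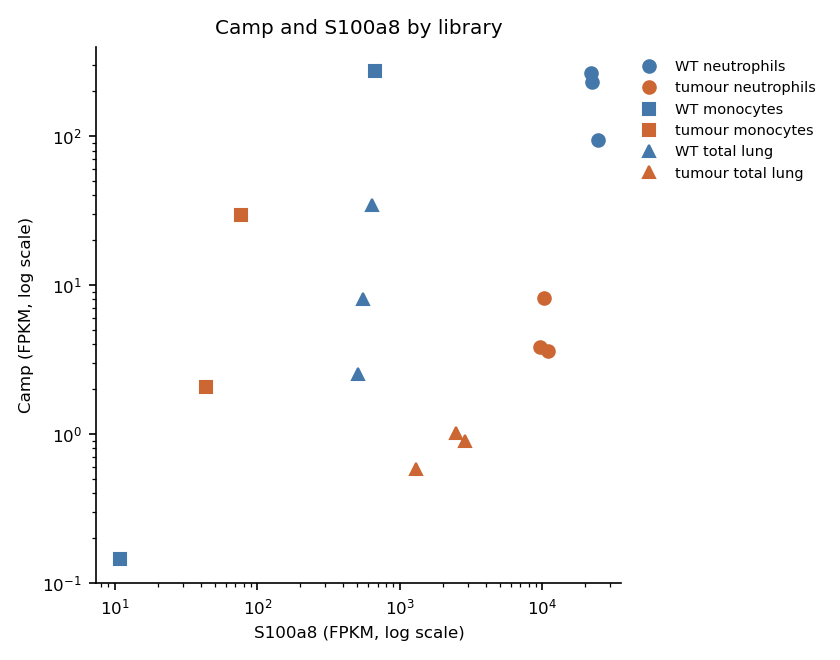
Camp against S100a8, a general neutrophil marker, in FPKM on log axes, for neutrophils, monocytes and total lung cells, with 1 point per library, coloured by WT or tumour lung. Tumour neutrophils have S100a8 of 9547 to 11008 with Camp of 3.57 to 8.16, and WT monocyte replicate 4 has S100a8 of 666 with Camp of 272.

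The upstream sequence of the 5 members that were lower together in tumour neutrophils is shown because C/EBP proteins and PU.1, factors of granulocyte development, are known to act near the starts of granule genes. RefSeq promoter entries (GRCm38.p6) matched 9 of the 9 members. The 250 bases before each RefSeq start are printed 5′ to 3′ on the gene's own strand, and capitals mark matches to TTGCNNAA, a C/EBP motif, on either strand.
Camp (chr9:109849457-109849706, minus strand): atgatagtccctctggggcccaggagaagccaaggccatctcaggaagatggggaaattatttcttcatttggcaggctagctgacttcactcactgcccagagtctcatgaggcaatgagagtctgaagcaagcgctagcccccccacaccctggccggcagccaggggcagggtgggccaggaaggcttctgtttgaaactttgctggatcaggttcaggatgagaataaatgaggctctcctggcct
Ltf (chr9:111019042-111019291, plus strand): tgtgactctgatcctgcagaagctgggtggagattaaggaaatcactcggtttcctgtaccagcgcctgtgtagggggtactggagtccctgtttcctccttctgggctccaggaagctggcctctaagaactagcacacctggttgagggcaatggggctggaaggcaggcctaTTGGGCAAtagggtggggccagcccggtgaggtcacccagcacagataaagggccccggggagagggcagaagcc
Lcn2 (chr2:32387740-32387989, minus strand): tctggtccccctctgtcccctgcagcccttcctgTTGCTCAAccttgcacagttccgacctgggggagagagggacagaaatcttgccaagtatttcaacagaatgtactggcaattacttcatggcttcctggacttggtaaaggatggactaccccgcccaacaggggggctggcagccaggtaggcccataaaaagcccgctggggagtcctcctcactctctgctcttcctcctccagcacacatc
Pglyrp1 (chr7:18884440-18884689, plus strand): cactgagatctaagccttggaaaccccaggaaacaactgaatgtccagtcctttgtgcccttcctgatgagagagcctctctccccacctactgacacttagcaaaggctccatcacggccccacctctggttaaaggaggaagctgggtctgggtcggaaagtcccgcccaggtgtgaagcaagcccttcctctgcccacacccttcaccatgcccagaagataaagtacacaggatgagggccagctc
Slpi (chr2:164356508-164356757, minus strand): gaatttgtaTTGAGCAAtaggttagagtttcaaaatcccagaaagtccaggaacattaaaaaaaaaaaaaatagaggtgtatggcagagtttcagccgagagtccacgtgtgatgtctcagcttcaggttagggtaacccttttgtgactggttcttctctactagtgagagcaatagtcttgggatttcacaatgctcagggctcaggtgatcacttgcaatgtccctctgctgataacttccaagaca
TTGCNNAA or its reverse complement was found in 3 of the 9 members, Ltf, Lcn2 and Slpi, and in 9.56% of the 32851 RefSeq upstream stretches of 250 bases. GAGGAA, a core read by PU.1 and other ETS factors, was found on either strand in 7 of 9 members and in 23.3% of all stretches. The 4 azurophil members were all among the 7. In Pglyrp1, 1 match to an NF-kappaB motif was found, which 7.25% of stretches hold. TATAAA was found upstream of Ctsg only, and in 12.4% of stretches. These are matches of letters in the window searched, and binding was not measured.

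Prtn3 and Elane lie next to each other on chromosome 10, on the plus strand, with 3072 bases between the GENCODE gene spans (chr10:79874476-79883174 and chr10:79886247-79888215, GRCm38). The stretches before their RefSeq starts are printed because Prtn3 was higher in tumour neutrophils while Elane did not exceed 0.152 FPKM in any neutrophil library. Capitals mark GAGGAA.
Prtn3 (chr10:79879417-79879666, plus strand): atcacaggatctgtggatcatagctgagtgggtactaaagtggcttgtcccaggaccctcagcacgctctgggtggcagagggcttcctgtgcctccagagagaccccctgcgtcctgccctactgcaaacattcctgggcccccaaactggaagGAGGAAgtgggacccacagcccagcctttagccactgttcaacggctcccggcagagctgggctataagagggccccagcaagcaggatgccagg
Elane (chr10:79886062-79886311, plus strand): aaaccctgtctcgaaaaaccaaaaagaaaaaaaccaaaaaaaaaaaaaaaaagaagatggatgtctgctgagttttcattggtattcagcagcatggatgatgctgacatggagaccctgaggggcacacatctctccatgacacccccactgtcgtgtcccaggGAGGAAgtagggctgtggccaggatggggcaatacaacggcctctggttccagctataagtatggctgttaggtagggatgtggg
Both hold 1 match in the same orientation. Camp and Ltf are also on 1 chromosome, chromosome 9, with 1169653 bases between them (chr9:109847379-109849617 on the minus strand and chr9:111019271-111042767 on the plus strand). Lcn2 (chr2:32384633-32388252) and Slpi (chr2:164354070-164389095) are on the minus strand of chromosome 2, Pglyrp1 is at chr7:18871331-18890459 and Mpo at chr11:87793581-87804413 on plus strands, and Ctsg is at chr14:56099881-56102574 on the minus strand.

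In epithelial cells, Lcn2, Slpi and Pglyrp1 were higher in tumour lung and Ltf did not pass the test. Of 4 members tested, 3 passed the threshold, where 23.8% of 11823 genes passed it in either direction and 14.9% were higher. The summed FPKM of the 9 members was 574 to 842 in WT and 1295 to 1504 in tumour epithelium, of which Lcn2 made up 71.4% to 93.5% in tumour. Camp, Elane, Prtn3 and Ctsg were listed at 0 in all 6 epithelial libraries, and Mpo was listed at 0 in 5 and at 0.00842 FPKM in tumour replicate 9.

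Lcn2 stood at 733, 519.8 and 801 FPKM in WT epithelium (replicates 8, 9 and 10) and at 1317, 1369.6 and 924 in tumour epithelium (replicates 9, 10 and 11). The groups did not overlap, and tumour epithelium held the highest mean Lcn2 of the 10 groups, 1204 ± 244 FPKM (SD, n = 3). The log2 change was 0.82 (SE 0.23, limma adjusted p = 0.0444), and the call was lost in 9 of 16 alternative settings (adjusted p from 0.0354 to 0.264 over all 16).

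Slpi stood at 29.9, 28.8 and 36.5 FPKM in WT epithelium and at 75.03, 120.2 and 346 in tumour epithelium. The tumour libraries spread widely, with replicate 11 the highest, and all lay above WT. Its log2 change was 2.18 (SE 0.50, limma adjusted p = 0.0256), a mean level 5.68-fold higher. The call was lost without any 1 of the 3 WT libraries (adjusted p = 0.0649 to 0.0899).

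Pglyrp1 stood at 6.11, 3.11 and 4.403 FPKM in WT and at 13.9, 12.4 and 22.9 in tumour epithelium. The groups did not overlap, and the log2 change was 1.64 (SE 0.29, limma adjusted p = 0.0128). The call held in 16 of 16 alternative settings.

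Ltf stood at 2.09, 22.5 and 0.394 FPKM in WT and at 2.56, 1.49 and 2.37 in tumour epithelium. WT replicate 9 was the highest library and WT replicate 10 the lowest, so that the tumour libraries lay inside the WT range (log2 change -0.59, SE 0.93, limma adjusted p = 0.660). Scgb1a1 was also highest in replicate 9, at 9405, 12155 and 2414 FPKM in WT replicates 8, 9 and 10. Without WT replicate 9 the Ltf log2 change was 0.58 (adjusted p = 0.307).

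Neutrophil transcripts were low in the epithelial libraries. S100a8 stood at 4.37, 17.9 and 0 FPKM in WT and at 8.92, 0.527 and 11.1 in tumour, and the sum of the 12 neutrophil markers was 121 to 150 FPKM in WT and 72.7 to 143 in tumour. Cycling genes were higher for 14 of 15 tested, and B cell (8 of 8) and endothelial (11 of 12) genes were lower. Of 12 macrophage genes tested, 4 were higher and none was lower: Marco (0.619 to 21.6 FPKM on average), Mrc1 (1.57 to 14.6), Pparg (4.06 to 19.2) and Cd68 (14.9 to 59.9). The macrophage list as a whole summed to 904 to 1406 FPKM in WT and 499.9 to 936 in tumour epithelium. Most of that sum came from Fabp5 (648 FPKM on average in WT and 271 in tumour) and Apoe (468 and 325). Neither passed the test, and the other listed macrophage genes all averaged higher in tumour epithelium. The part of these cells in the differences of the members and of the partner genes that follow was not tested.

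Partner genes in the same libraries included protease inhibitors, of which 5 of 7 tested, Slpi among them, were higher and none was lower, with a median log2 change of 0.96 against 0.01 over all genes. Serpinb1a, an intracellular inhibitor of elastase and proteinase 3, rose from 3.05 to 40.3 FPKM on average (log2 change 3.22, limma adjusted p = 0.00506). Timp1, an inhibitor of metalloproteases, rose from 1.73 to 21.03 FPKM (2.98, adjusted p = 0.0104). Of 12 inducers of Lcn2 and Slpi and their signalling genes, 4 were higher and none lower. Tnf rose from 1.96 to 28.9 FPKM (3.41, limma adjusted p = 0.0128), Nfkbiz, a nuclear cofactor needed for Lcn2 induction, from 21.9 to 77.2 (1.68, adjusted p = 0.0182), and Il22ra1, a chain of the interleukin 22 receptor, from 0.556 to 5.35 (2.02, adjusted p = 0.00721).

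In total lung cells, 3 of 6 members tested passed the threshold, Slpi and Prtn3 higher and Camp lower, where 42.5% of 11747 genes passed it in either direction. Prtn3 reached the filter only through its tumour libraries, and Camp through its 3 WT libraries and 1 tumour library. In these unsorted cells, fewer cells of a type and less RNA per cell cannot be told apart. Camp stood at 8.10, 34.2 and 2.50 FPKM in WT (replicates 11, 12 and 13) and at 0.579, 1.01 and 0.893 in tumour lung (replicates 12, 13 and 14). All WT libraries lay above all tumour libraries, with WT replicate 12 well above the rest. The mean was 18-fold lower in tumour lung (log2 change -2.51, SE 0.72, limma adjusted p = 0.0253). Without WT replicate 12 the log2 change was -1.63 (adjusted p = 0.0212), and the call was lost in 7 of 16 alternatives, among them the fit with a replicate block (adjusted p = 0.0767).

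Slpi stood at 94.3, 103 and 78.8 FPKM in WT and at 204, 165 and 322 in tumour lung. The groups did not overlap (log2 change 1.27, SE 0.24, limma adjusted p = 0.00481), and the call held in 16 of 16 alternatives. Prtn3 stood at 0.299, 0.817 and 0.258 FPKM in WT and at 1.10, 2.13 and 1.58 in tumour lung. All tumour libraries were higher (log2 change 0.84, SE 0.22, limma adjusted p = 0.0183), at levels near 1 FPKM, and 4 of 15 alternatives lost the call.

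Ltf, Lcn2 and Pglyrp1 overlapped between the lungs. Ltf stood at 3.88, 17.5 and 1.69 FPKM in WT and at 7.17, 12.6 and 20.5 in tumour (limma adjusted p = 0.223). Lcn2 stood at 106, 192 and 83.8 FPKM in WT and at 145, 227 and 144 in tumour (adjusted p = 0.247). Pglyrp1 stood at 48.9, 71.2 and 55.2 FPKM in WT and at 53.1, 68.4 and 103 in tumour (adjusted p = 0.330). WT replicate 12 was the highest WT library in all 3 genes, and without it Ltf (log2 change 1.88, adjusted p = 0.0184) and Lcn2 (0.82, adjusted p = 0.0378) passed the threshold as higher in tumour lung. The same library was highest in Mpo, at 1.39 FPKM against 0.139 and 0.137, in Elane, at 1.03 against 0 and 0, and in Ctsg, at 0.617 against 0.250 and 0.155. In tumour lung no library exceeded 0.152 FPKM of Mpo, 0.0986 of Elane or 0.127 of Ctsg. Scgb1a1 stood at 7238 FPKM in WT replicate 12 and at 2304 and 798 in the other 2, and Retnlg at 829.8 against 329.8 and 266.

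Camp thus fell in total lung where general neutrophil markers rose. Of 12 neutrophil markers tested, 10 were higher in tumour lung, with a median log2 change of 1.99 against -0.01 over all genes. S100a8 stood at 552, 634 and 511 FPKM in WT and at 1304, 2459 and 2859 in tumour lung. The granulocyte colony-stimulating factor receptor Csf3r went from 44.3 to 242 FPKM (log2 change 2.37, limma adjusted p = 0.000439) and the chemokine receptor Cxcr2 from 3.68 to 26.6 (2.46, adjusted p = 0.00116). Retnlg stood at 194, 245 and 625 FPKM in tumour lung, across the WT range. Of 11 specific granule genes tested, 5 were higher and only Camp was lower. Cd177 went from 2.29 to 23.2 FPKM (log2 change 2.72, adjusted p = 0.00278), Mmp8 from 4.87 to 19.1 (1.71, adjusted p = 0.00228) and Trem1 from 38.4 to 172 (2.04, adjusted p = 0.00297). All 12 macrophage markers tested were also higher, and all 8 B cell, all 12 endothelial and 8 of 9 type II cell markers were lower. The remaining type II cell marker, Sftpc, was listed at 0 in every WT total lung library, so no direction is given for it.

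**Figure D4:**
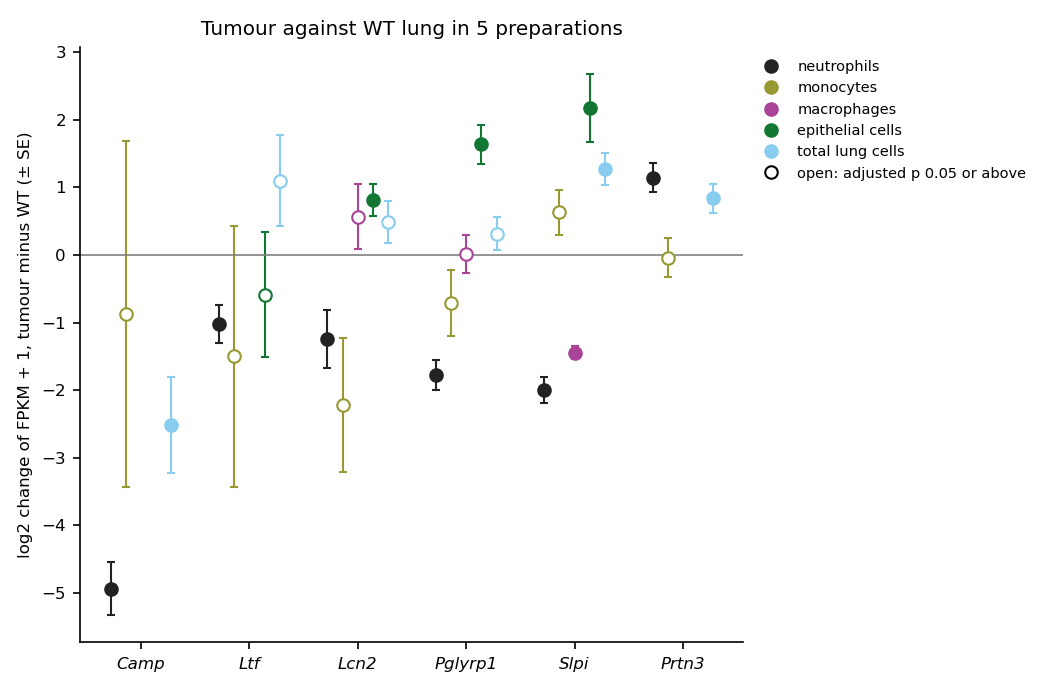
Log2 change of each tested member on FPKM + 1, tumour minus WT, in the 5 preparations, with bars of 1 standard error and filled points where the limma adjusted p was under 0.05. Slpi is below 0 in neutrophils (-2.0) and macrophages (-1.44) and above 0 in epithelial cells (2.18) and total lung cells (1.27).

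In macrophages, 1 of 3 members tested passed the threshold, where 37.9% of 10119 genes did. Slpi stood at 342 and 316 FPKM in WT macrophages (replicates 1 and 2) and at 124, 122 and 114 in tumour macrophages (replicates 1, 2 and 3). The groups were far apart for their spread (log2 change -1.44, SE 0.098, limma adjusted p = 8.67e-05), and the call held in 15 of 15 alternatives. WT macrophages held the third highest mean Slpi of the 10 groups, 329 ± 18.2 FPKM.

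Lcn2 stood at 3.46 and 2.54 FPKM in WT and at 9.63, 2.001 and 5.35 in tumour macrophages (limma adjusted p = 0.392), and Pglyrp1 at 6.11 and 3.86 against 6.32, 5.84 and 3.19 (adjusted p = 0.972). The groups overlapped for both genes. Without tumour replicate 2, the lowest library, Lcn2 passed the threshold (log2 change 1.05, adjusted p = 0.0315). Camp exceeded 1 FPKM in WT replicate 1 only (1.57), and Ltf, Mpo, Elane, Prtn3 and Ctsg were under 1 FPKM in all 5 libraries. Neutrophil markers summed to 97.7 to 118 FPKM in WT and to 595 to 1093 in tumour macrophages. In tumour macrophages 10 of 12 endothelial genes (sums of 102 to 109 FPKM in WT and 16.8 to 27.1 in tumour) and 6 of 9 type II cell genes (649 to 857 and 149.9 to 383) were lower, 2 type II cell genes were higher, and 5 of 8 monocyte genes (292 to 303 and 774 to 863) were higher and 2 lower. Their part in the Slpi difference was not tested.

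In monocytes, 0 of 6 members tested passed the threshold, and 0% of all 10366 genes did by limma, the lowest adjusted p of any gene being 0.0911. At an unadjusted p under 0.05 there were 1559 genes. A fit of all 10 groups called 1152 genes, Lcn2 among them (adjusted p = 0.0494), and the fit without tumour replicate 5 called 310. The 2 WT libraries stood far apart from each other. Camp stood at 0.144 and 272 FPKM in WT monocytes (replicates 3 and 4) and at 2.05 and 29.6 in tumour monocytes (replicates 4 and 5). Ltf stood at 0.112 and 64.3 against 0.197 and 6.58, and Lcn2 at 11.4 and 97.6 against 3.70 and 10.9.

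WT monocyte replicate 4 thus held as much Camp as the highest WT neutrophil library. It also held 666 FPKM of S100a8, 959 of S100a9 and 931 of Retnlg, where replicate 3 held 10.9, 8.93 and 88.7. Csf3r did not follow, with 62.5 FPKM in replicate 4 against 78.7 in the other library, and Cxcr2 stood at 2.45 against 1.73. The neutrophil marker sum was 470 and 2980 FPKM in the WT libraries. Each fit with 1 WT library left takes its spread from the tumour monocytes alone. Without replicate 4 the Camp log2 change was 3.08 (adjusted p = 0.437), and without replicate 3 it was -4.82 (adjusted p = 0.415), so no direction can be given.

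Pglyrp1 stood at 34.5 and 103 FPKM in WT and at 36.9 and 35.7 in tumour monocytes. Slpi stood at 103 and 84.8 FPKM in WT and at 203 and 103 in tumour monocytes (limma adjusted p = 0.460). Prtn3 was highest in monocytes of all preparations, at 6.44 and 9.01 FPKM in WT and 9.35 and 5.80 in tumour. The ranges of the WT and tumour monocytes overlapped for Prtn3, and the next group in order, tumour neutrophils (1.95 ± 0.687 FPKM, n = 3), lay under both. Ctsg had its highest mean levels here too, at 0.999 and 0 FPKM in WT and 0.469 and 0.603 in tumour. Over the 4 libraries Mpo did not exceed 0.160 FPKM and Elane 0.368.

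Set against monocytes of the same lung, neutrophils held more of most members and less Prtn3, where most genes tested were lower in neutrophils. In WT lung 5 of 6 members tested passed the threshold, where 79.7% of 10295 genes did (14.5% higher and 65.2% lower). Slpi (log2 change 4.61, SE 0.16), Lcn2 (4.29, SE 0.71), Ltf (3.72, SE 1.4) and Pglyrp1 (3.33, SE 0.39) were higher in neutrophils. Prtn3 was lower (-2.72, SE 0.25), but no WT neutrophil library reached 1 FPKM of it. Prtn3 was thus tested only through the WT monocyte libraries, where it is high, and its place in the count was set by them. Camp did not pass (log2 change 3.35, limma adjusted p = 0.134). The Ltf call (limma adjusted p = 0.0387) was lost in 8 of 14 alternatives, among them the robust fit (adjusted p = 0.188). Leaving out a monocyte library leaves 1 in that arm, whose spread is then assumed to be that of the neutrophils. On that footing Camp passed without WT monocyte replicate 4 (7.30, adjusted p = 2.64e-05), and without replicate 3 both Camp (-0.60, adjusted p = 0.308) and Ltf (0.78, adjusted p = 0.109) missed the threshold. In tumour lung 5 of 6 members passed as well, where 77.6% of 10045 genes did (11.6% higher and 66.0% lower). There Lcn2 (5.28), Ltf (4.20), Pglyrp1 (2.25) and Slpi (1.98) were higher in neutrophils, Prtn3 was lower (-1.53), and Camp did not pass (-0.72, limma adjusted p = 0.489).

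Whether the tumour effect differed between cells was tested as an interaction, the effect in neutrophils minus that in another preparation. Against epithelial cells 5 of 6 members passed, where 34.5% of genes did, but Camp and Prtn3 are listed at 0 in epithelium, so their values repeat the neutrophil change and only Slpi, Pglyrp1 and Lcn2 bear on a difference. Slpi, 3.94-fold lower in tumour neutrophils and 5.68-fold higher in tumour epithelium, differed by -4.18 on the log2 scale (SE 0.59, limma adjusted p = 0.000385). Against macrophages 4 of 6 members passed, where 52.7% of genes did, but of these Pglyrp1 alone had passed the filter in macrophages, and Camp, Ltf and Prtn3 entered through neutrophils. Slpi did not pass (-0.56, SE 0.25, adjusted p = 0.0775). Against total lung cells 4 of 6 differed, where 41.9% of genes did, but the Camp and Lcn2 calls were lost in 14 and 11 of 21 alternatives. Against monocytes 1 of 6 differed, Slpi (-2.63, SE 0.40, adjusted p = 0.00315), where 18.8% of genes did. All the effects compared share the neutrophil libraries.

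Ordered by mean level over the 10 groups, the members fell into distinct orders. Slpi ran from 2309.8 ± 244 FPKM in WT neutrophils through 587 ± 141 in tumour neutrophils and 329 ± 18.2 in WT macrophages to 31.7 ± 4.18 in WT epithelium. The first 3 of these did not overlap with each other. From WT macrophages down to tumour macrophages (120.3 ± 5.44) each group overlapped with the next, through tumour total lung, tumour epithelium and tumour monocytes. Pglyrp1 ran from 612 ± 69.3 in WT neutrophils and 183 ± 55.0 in tumour neutrophils, each clear of the next group, to 4.54 to 5.12 FPKM in macrophages of both lungs and in WT epithelium, which overlapped.

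For Lcn2, tumour epithelium (1204 ± 244 FPKM) lay above WT neutrophils (688 ± 78.8) and WT epithelium (685 ± 147), which overlapped with each other and with tumour neutrophils (349 ± 275). Macrophages of both lungs and tumour monocytes held the least, with means of 2.996 to 7.29 FPKM, and each overlapped with its neighbour in that order. Ltf was highest in WT neutrophils (118 ± 46.7 FPKM), clear of tumour neutrophils (55.1 ± 11.1), and each group overlapped with the next from there down to tumour epithelium (2.14 ± 0.568). Camp ranged from 197 ± 90.8 FPKM in WT neutrophils through WT monocytes (0.144 and 272), tumour monocytes and WT total lung to tumour neutrophils in the fifth place, with every neighbouring pair down to there overlapping.

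As a description over the 27 libraries, which share cell types and so are not independent points, Ltf and Pglyrp1 (Pearson r = 0.82 on log2(FPKM + 1)), Camp and Pglyrp1 (0.77), Camp and Ltf (0.74) and Pglyrp1 and Slpi (0.74) had the most similar patterns among the members. Lcn2 and Slpi, the pair shared with epithelium, had r = 0.12, and Slpi and Prtn3 0.02. Among 10250 genes reaching 5 FPKM in at least 2 libraries, the most similar to Camp were Fosl1 (r = 0.86), Mafk (0.86) and Tfip11 (0.85). For Ltf they were Igf1r (0.88), Olfm4 (0.87) and Retn (0.87). For Lcn2 they were Pip5k1b (0.96), Lamb3 (0.95) and Nnat (0.94). Pglyrp1 was closest to Slc2a3 (0.96), F5 (0.95) and Cyld (0.95), Slpi to Gcnt2 (0.94), Gch1 (0.93) and Dgat2 (0.93), and Prtn3 to Poldip3 (0.84), Prr3 (0.83) and Morc3 (0.83).

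Each library of the series had 8560 to 11420 genes at 1 FPKM or more. Replicates correlated at r = 0.964 to 0.996, and no pair of libraries within a group held identical values. The spacing of low values gave relative depths of 0.616 to 1.58, a rough measure, and intervals for counting error cannot be had from FPKM alone. Relative depth did not overlap between the lungs in neutrophils (0.859 to 0.959 in WT and 1.10 to 1.23 in tumour). Nor did it in epithelium (0.835 to 0.959 and 1.25 to 1.58). The part of depth in the members' differences was not tested. Sort markers followed the gates: Itgam (CD11b) averaged 349.5 and 346 FPKM in WT and tumour neutrophils and 0.762 and 0.511 in WT and tumour epithelium, and Epcam averaged 0.919 and 0.937 in neutrophils and 87.1 and 91.1 in epithelium.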

How the data were processed

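RNA from sorted or total lung cells was sequenced as 27 libraries in 10 groups of 2 or 3. The authors made the deposited FPKM with tools that the submitters' processing notes name as CASAVA 1.8.2, TopHat2, Cufflinks and Cuffdiff, with builds mm10 and GRCm38; each tool's role and settings are not given in the sources used here. The deposited table gives FPKM for 16024 gene symbols, and all 27 columns matched library titles. FPKM hold no fragment counts, so no counting interval is given.

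Tests used log2(FPKM + 1). Every gene that reached 1 FPKM in 2 or more of the fit's libraries was fitted with limma 3.58.1 (R 4.3.3, trend, empirical Bayes, two-sided), with p-values adjusted by Benjamini and Hochberg over all of them and a threshold of 0.05. Only the groups compared entered each fit, and interaction terms used 4 groups. The script was tested on simulated data. Promoters came from RefSeq (GRCm38.p6) and gene spans from GENCODE M21. Of 250 entries in 20 gene lists, 210 matched a row. All members are named, and from each list up to 3 called genes with the largest change in neutrophils and a mean of at least 5 FPKM in a group; a few further genes were named after their values were seen. The members and lists were chosen with earlier results of these data known. Alternatives were other pseudocounts, filters and normalizations, robust fits, a fit of all 10 groups, a replicate block and leaving out each library. A result for 1 further gene is not reported here.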

Additional observations from a re-analysis of the deposited data

Results flagged for a closer look

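The tumour effect on log2(FPKM + 1) differed between neutrophils and another preparation, by the limma interaction term, for the members given here. All these values share the neutrophil libraries. Negative values mean that the change from WT to tumour was lower in neutrophils.

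Against epithelial cells, the effect in neutrophils minus that in epithelium was -4.18 for Slpi, -3.42 for Pglyrp1 and -2.06 for Lcn2. The values of -4.94 for Camp and 1.14 for Prtn3 only repeat the neutrophil change, since both genes are listed at 0 in all 6 epithelial libraries. Against macrophages, whose gate differed between the lungs, the difference was -1.79 for Pglyrp1. The values of -4.48 for Camp, -1.47 for Ltf and 1.04 for Prtn3 largely restate the neutrophil change, since these genes did not pass the filter in macrophages. Against monocytes it was -2.63 for Slpi. Against total lung cells it was -3.27 for Slpi, -2.43 for Camp, -2.09 for Pglyrp1 and -1.73 for Lcn2. Of these, the Camp call (limma adjusted p = 0.0499) was lost in 14 of 21 alternatives and the Lcn2 call (adjusted p = 0.0379) in 11 of 21. The Slpi and Pglyrp1 calls held in 21 of 21.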

How the results depend on the processing

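Of the calls in neutrophils, those of Camp, Pglyrp1, Slpi and Prtn3 kept their direction and threshold in every alternative run. The number of members called moved as follows. Without filter it was 1 in epithelial cells and 2 for the difference from total lung cells. A fit of all 10 groups gave 4 in place of 6 in neutrophils, without Ltf and Lcn2, 1 in monocytes, 2 for the difference from monocytes and 2 for that from total lung cells, and quantile normalization gave 2 and 2 for those differences. Leaving out 1 library gave 5 to 6 in neutrophils, 1 to 2 in macrophages, 0 in monocytes, 1 to 3 in epithelial cells, 1 to 5 in total lung cells, 3 to 5 for WT neutrophils against WT monocytes, 5 to 6 in tumour lung, and for the differences 3 to 5 (macrophages), 1 to 3 (monocytes), 5 to 6 (epithelial cells) and 2 to 5 (total lung cells). The cause was not tested.

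With a replicate block, 1 member was called in total lung cells in place of 3, and over all genes it called 3564 against 5524 (neutrophils), 397 against 2816 (epithelium) and 2423 against 4993 (total lung). The paired fit has fewer residual degrees of freedom, and the replicate numbers are a running count of libraries: same-numbered libraries had deviations correlated at -0.17 to 0.08. No paired analysis was possible in monocytes because they share only number 4. Over all genes, a fit of all 10 groups called 1152 in monocytes and 5343 in epithelial cells. Leaving out 1 library gave 0 to 310 genes in monocytes, 490 to 4215 in epithelial cells, 1778 to 4520 in macrophages and 1283 to 1939 for the difference from monocytes.

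Directions turned only for log2 changes that had missed the threshold. Quantile normalization gave -0.023 for Pglyrp1 in macrophages, 0.040 for Camp in tumour neutrophils against monocytes, and 0.14 for Slpi and 0.25 for Ltf in the differences from macrophages and epithelial cells. Upper-quartile scaling gave -0.045 for Pglyrp1 in macrophages, and the replicate block gave -0.056 for it in total lung. Leaving out 1 library gave -0.26 to 0.29 for Pglyrp1 in macrophages, -4.82 to 3.08 for Camp, -1.48 to 0.071 for Pglyrp1 and -0.34 to 0.26 for Prtn3 in monocytes, and -1.46 to 0.58 for Ltf in epithelium. It gave -0.60 to 7.30 and -2.38 to 0.94 for Camp in WT and tumour neutrophils against monocytes. In the differences from monocytes it gave -2.46 to 3.42 for Ltf and -0.51 to 2.48 for Lcn2, and in that from epithelial cells -1.60 to 0.44 for Ltf. Depth behind each FPKM is unknown, which limits most the members near or under 1 FPKM.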
